A study of Mus musculus with 18 samples.

Results

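The neuropeptide and peptide hormone genes Calca, Calcb, Grp, Nmu, Tac1, Npy, Sst, Cck, Vip and Gal were followed tumor by tumor in a mouse model of small cell lung cancer (SCLC). These 10 genes were taken by name from the 46078 genes of the RNA-seq table, and 5 of them (Calca, Grp, Tac1, Npy and Cck) had enough counts to be tested among 15514 genes. Open chromatin around them was read from 37 ATAC-seq peaks that lay within 20000 bp of a member gene, of 111664 peaks in all. The names were chosen as peptide genes and not by how they behaved, although with earlier results of these data known. Coordinates are those of GRCm38, with gene bounds from GENCODE.

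Neuropeptides are made as larger precursors, cut out by prohormone convertases, trimmed by carboxypeptidases, often amidated at the C terminus, stored in dense core granules and released to act on G protein-coupled receptors. In the lung they are products of pulmonary neuroendocrine cells, the rare airway cells from which SCLC is thought to arise most often. CGRP (from Calca) and gastrin-releasing peptide (from Grp) are textbook markers of those cells, and gastrin-releasing peptide is known as a growth factor for SCLC cells in culture.

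All mice carried the floxed alleles Rb1L/L, Rbl1L/L and p53L/L of the labels, called TKO. The control group was TKO alone. The CARM1 knockout group also carried Carm1L/L, a floxed allele of the arginine methyltransferase CARM1. The NFIB mutant group carried NfibR388K, a knock-in that takes away the arginine of the transcription factor NFIB that CARM1 methylates, and which is present in every cell of the mouse. Cre came from an adenovirus given into the trachea at 8 weeks of age, so deletion depended on which airway cells took up the virus, and tumors grew for 28 weeks. There were 3 RNA-seq and 3 ATAC-seq libraries per genotype, each from tumors of a separate animal according to the labels. The study's methods describe sorting by a tdTomato reporter that Cre switches on, and they name the second gene of the Rb family Rbl1 in one place and Rbl2 in another. For ATAC-seq they also speak of cancer cell lines. Which RNA-seq library shares a tumor with which ATAC-seq library is not in the labels.

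RNA-seq libraries held 15848866 to 20915057 counts on genes and ATAC-seq libraries 26917178 to 47653979 counts on peaks. Values are CPM (counts per 1000000 counts, scaled by TMM factors), with 3 counts in a library taken as the floor of detection, which was 0.131 to 0.203 CPM in RNA-seq. "Called" means that the quasi-likelihood test of edgeR gave an adjusted p (Benjamini-Hochberg, over all features) below 0.1 and a log2 fold change beyond 0.8 for a gene or 0.5 for a peak, in either direction. In the checks of the genotypes, Carm1 read 97.5, 103 and 44.4 CPM in TKO and 63.3, 79.1 and 50.7 CPM in CARM1 knockout, a log2 fold change of -0.34 that was not called (adjusted p = 0.410). These counts cover the whole gene, so they do not show whether the floxed exons were gone. Nfib was called lower in CARM1 knockout (log2 fold change -2.06, adjusted p = 0.00799) and in NFIB mutant (-2.49, adjusted p = 0.00325).

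Defining markers of neuroendocrine tumor cells were high in the TKO libraries and low in most mutant ones. The summed level of 11 neuroendocrine markers was 1835 to 4356 CPM in the TKO tumors, 59.3, 189 and 1227 CPM in CARM1 knockout replicates 1, 2 and 3, and 33.4 to 51.2 CPM in NFIB mutant. All 11 markers were called lower in NFIB mutant, beside 23.5% of all genes tested. In CARM1 knockout 1 of 11 was, beside 18.3%, and 10 of 11 when replicate 3 was left out. Conversely, the summed level of 6 fibroblast markers was 11.1 to 63.1 CPM in TKO, 14443 to 25743 in the CARM1 knockout tumors, and 9470 to 15903 in the NFIB mutant tumors. Leukocyte markers summed to 1.19 to 46.8, 169 to 2578 and 13.3 to 438 CPM, and lung epithelial markers to 1.49 to 63.6 CPM in 8 libraries and 1872 CPM in NFIB mutant replicate 1. The study's methods describe sorted cells, and how pure the libraries were was not tested. If a library held mixed cells, fewer cells of a type and less RNA per cell cannot be told apart. The part that these shifts in markers played in the results below was not tested.

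The mixture of neuropeptide mRNAs differed from tumor to tumor. The 10 genes together gave 16.4 to 45.8 CPM in the TKO tumors, 55.1, 224 and 929 in the CARM1 knockout tumors, and 407, 344 and 47.3 in the NFIB mutant tumors. Each TKO tumor had its own mixture. Per length (RPKM, which is CPM per 1000 bp of exon), Calca made up 46.3% of the summed level in TKO replicate 1 with Grp at 31.6%, Cck made up 34.8% in replicate 2 with Sst at 29.0%, and Gal made up 72.4% in replicate 3 with Calca at 18.9%. Of the 10 genes, 5, 6 and 5 were above the floor in these tumors.

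The CARM1 knockout tumors differed among themselves as well. Npy led in replicate 1 with 53.3% of the summed RPKM, Cck in replicate 2 with 94.6% and Calca in replicate 3 with 83.3%. In the NFIB mutant tumors 1 gene prevailed. Cck made up 99.0%, 96.0% and 98.3% of the summed RPKM there, and only 3, 4 and 2 of the 10 genes were above the floor.

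**Figure D1:**
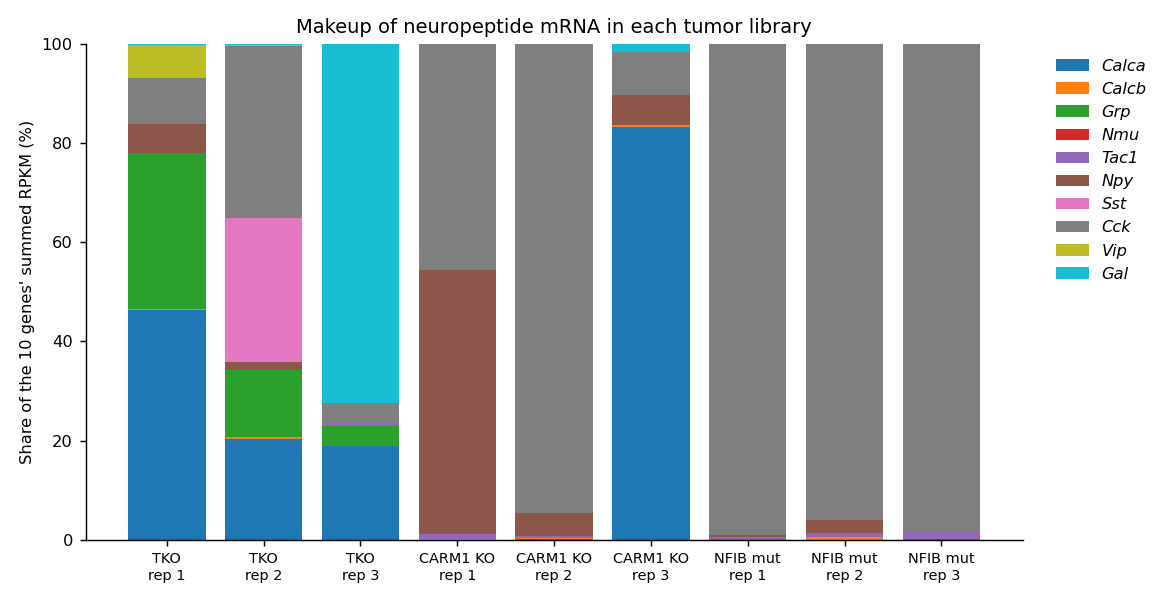
Share of each gene in the summed RPKM of the 10 neuropeptide genes, 1 bar per RNA-seq library. Cck fills 96.0% or more of every NFIB mutant bar, whereas the leading gene is a different one in each TKO bar (Calca, Cck, Gal) and in each CARM1 knockout bar (Npy, Cck, Calca).

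Among the tested members, 4 of 5 were called in CARM1 knockout (3 higher, 1 lower), where 38.8% of all genes tested were called, 20.5% higher and 18.3% lower. In NFIB mutant 3 of 5 were called (2 higher, 1 lower), where 45.8% of all genes were, 22.3% higher and 23.5% lower. Without CARM1 knockout replicate 3 the calls were 2 higher and 2 lower in each. Without TKO replicate 1 or 2 or CARM1 knockout replicate 1 or 2 only 1 of 7 members then tested was called in CARM1 knockout. The groups did not overlap for 3 of the 5 in CARM1 knockout and 4 of the 5 in NFIB mutant, beside 54.8% and 57.7% of all genes tested. A filter on low counts had kept only members with enough counts in several libraries. It left out Sst, Vip and Gal, each high in only 1 or 2 tumors. The median log2 fold change of the 5 tested members was 4.04 in CARM1 knockout and 1.93 in NFIB mutant, beside -0.03 and -0.05 over all genes. These medians do not give the direction of the whole list, because the filter decided which members entered them. Tac1, with 1, 1 and 5 counts in TKO, passed on its counts in the mutant libraries. Sst (158 counts in TKO replicate 2) and Vip (131 in TKO replicate 1) were left out. So were Gal (208 counts in TKO replicate 3, 135 in CARM1 knockout replicate 3) and Calcb (at most 2 counts in TKO, 32 in CARM1 knockout replicate 3). No member was called between the mutants, where edgeR called 0 of 15514 genes (0.0%, smallest adjusted p = 0.115), 1414 genes had an unadjusted p under 0.05 and DESeq2 called 540. Both mutants were compared with the same 3 TKO libraries.

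**Figure D2:**
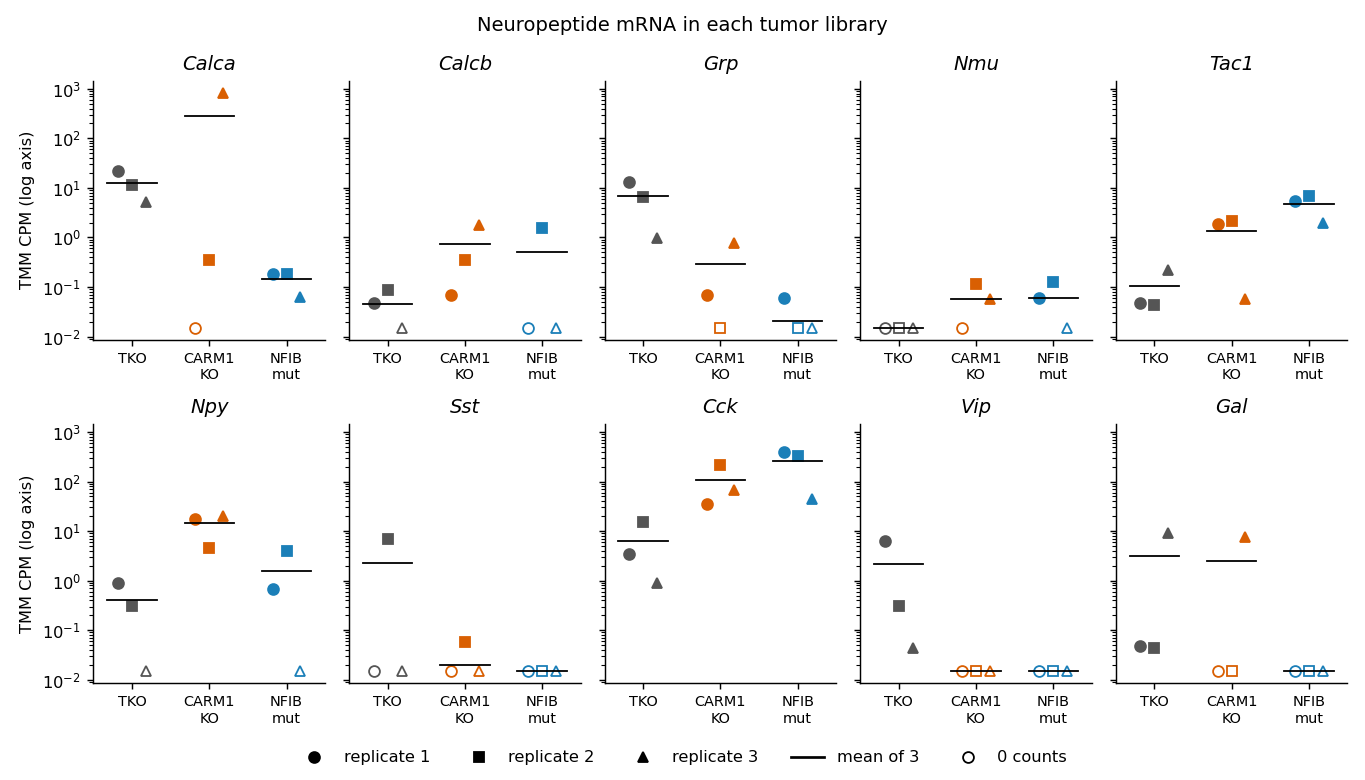
TMM CPM of the 10 genes on a log axis, 1 symbol per RNA-seq library, with a line at the mean of 3 and open symbols at the bottom for 0 counts. Grp sits lower in every mutant library than in every TKO library, Cck sits higher in every mutant library, and Calca is at 832 CPM in CARM1 knockout replicate 3.

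Calca (chr7:114631478-114636357, minus strand) encodes calcitonin and, by alternative splicing, CGRP, and the gene counts do not separate the 2 products. Its levels were 21.9, 11.4 and 5.12 CPM in the TKO tumors, 0, 0.350 and 832 in the CARM1 knockout tumors, and 0.182, 0.185 and 0.0635 in the NFIB mutant tumors. The CARM1 knockout tumors thus lay below TKO in 2 libraries and far above it in the remaining one. That library also held the most neuroendocrine marker RNA among the mutants, 1227 CPM, though less than the 1835 to 4356 CPM of TKO. The difference between CARM1 knockout (277 ± 480 CPM, SD, n = 3) and TKO (12.8 ± 8.49 CPM, SD, n = 3) was not called (log2 fold change 4.44, SE 2.48, adjusted p = 0.190). Without CARM1 knockout replicate 3 it turned to -6.06 and was called (adjusted p = 0.0189, range over 15 alternatives 0.0189 to 0.868). In NFIB mutant all 3 libraries were at or under the floor and below every TKO library. With 7 counts in the NFIB mutant libraries against 833 in TKO, the TKO rate was 86.9 times as high (exact 95% interval 42.0 to 217, counting error only). The test did not call it (log2 fold change -6.41, SE 3.11, adjusted p = 0.128) unless CARM1 knockout libraries were left out of the shared fit, with adjusted p = 0.0668, 0.0827 and 0.00687 without CARM1 knockout replicates 1, 2 and 3 and 0.00362 in a fit of only NFIB mutant and TKO.

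Calcb (chr7:114718643-114723365, plus strand), the neighbouring gene for the second form of CGRP, was at or under the floor in TKO with 1, 2 and 0 counts. It had 1, 6 and 32 counts in CARM1 knockout and 0, 25 and 0 counts in NFIB mutant. The longest stretch that Calca and Calcb transcripts share without a mismatch is 61 bases, and Calcb had 25 counts in NFIB mutant replicate 2, where Calca had 3. Calcb was not tested.

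Grp (chr18:65872820-65886596, plus strand) encodes gastrin-releasing peptide, the mammalian bombesin. It read 13.1, 6.59 and 0.971 CPM in the TKO tumors, 0.0677, 0 and 0.785 in the CARM1 knockout tumors, and 0.0607, 0 and 0 in the NFIB mutant tumors. Every mutant library was below every TKO library, but CARM1 knockout replicate 3 was close to TKO replicate 3. Grp fell in NFIB mutant (log2 fold change -7.98, SE 1.97, adjusted p = 0.0149), and this call held with each library left out in turn. The fitted value depends on the prior count, since NFIB mutant held 1 count against 446 in TKO, a rate 326 times as high in TKO (exact 95% interval 58.1 to 12886, counting error only). It also fell in CARM1 knockout, 24.2-fold in mean CPM (log2 fold change -4.55, SE 1.57, adjusted p = 0.0556). That call was lost without TKO replicate 1 (adjusted p = 0.136), TKO replicate 2 (0.102), CARM1 knockout replicate 1 (0.152) or CARM1 knockout replicate 2 (0.108), with a range of 0.00789 to 0.152 over 16 alternatives. The antisense gene AC152076.4 overlaps Grp, and reads of the genes could not be told apart if strand was not used in the counting.

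Nmu (chr5:76333495-76363788, minus strand), whose product neuromedin U acts on smooth muscle and immune cells, was at or under the floor in all 9 libraries, with at most 2 counts in any.

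Cck (chr9:121489824-121495694, minus strand) encodes cholecystokinin, the gut and brain peptide best known for emptying the gall bladder. It had the highest mean level of the 10 genes (124 CPM over the 9 libraries). Cck read 3.45, 15 and 0.883 CPM in the TKO tumors, 35.2, 216 and 66.4 in the CARM1 knockout tumors, and 400, 331 and 45.3 in the NFIB mutant tumors. Every mutant library was above every TKO library. Cck rose 40.2-fold in mean CPM in NFIB mutant (259 ± 188 against 6.44 ± 7.51 CPM, SD, n = 3 each, log2 fold change 5.33, SE 1.35, adjusted p = 0.0164), with no library deciding the call. In CARM1 knockout it rose 16.5-fold (106 ± 96.7 CPM, SD, n = 3, log2 fold change 4.04, SE 1.27, adjusted p = 0.0412). That call was lost without TKO replicate 1 (adjusted p = 0.115) or CARM1 knockout replicate 2 (0.115), with a range of 0.00117 to 0.115 over 17 alternatives. The mutants did not differ from each other beyond their spread (log2 fold change -1.29, SE 1.14, adjusted p = 0.787).

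The 250 bases before the start of Cck are shown because its promoter was more open in both mutants while a peak upstream of it was nearly lost. They lie at chr9:121495695-121495944 on the minus strand (RefSeq, GRCm38.p6). Those of Calca (chr7:114636358-114636607, minus strand) and of Npy (chr6:49822460-49822709, plus strand) are shown beside them as promoters that were less open in NFIB mutant. Capitals mark matches on either strand to the E-box CAGCTG or the related E-box CAGGTG, or a further E-box with the letters CAGATG, to TTGGC, a partial site of NFI factors, to the full palindromic NFI site and to TGACGTCA, the cAMP response element.
Cck promoter: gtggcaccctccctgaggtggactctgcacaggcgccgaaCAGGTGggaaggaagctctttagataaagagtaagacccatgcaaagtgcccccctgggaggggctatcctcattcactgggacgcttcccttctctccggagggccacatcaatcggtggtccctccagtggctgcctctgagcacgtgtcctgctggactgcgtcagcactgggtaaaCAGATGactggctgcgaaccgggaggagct
Calca promoter: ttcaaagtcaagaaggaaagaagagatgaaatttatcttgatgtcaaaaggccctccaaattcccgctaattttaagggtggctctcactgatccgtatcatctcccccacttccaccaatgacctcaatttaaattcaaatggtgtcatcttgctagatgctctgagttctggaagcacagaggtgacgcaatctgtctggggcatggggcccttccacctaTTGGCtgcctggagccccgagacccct
Npy promoter: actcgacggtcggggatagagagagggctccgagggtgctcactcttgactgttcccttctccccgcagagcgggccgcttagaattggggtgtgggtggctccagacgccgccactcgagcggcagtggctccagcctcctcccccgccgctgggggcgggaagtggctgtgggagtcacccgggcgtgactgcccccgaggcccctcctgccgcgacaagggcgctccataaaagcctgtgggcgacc
Cck held 1 CAGGTG and 1 CAGATG, Calca held 1 TTGGC and Npy none of the 6 motifs. Of all 32817 RefSeq promoters of this length, 17.2% held CAGGTG, 14.5% CAGATG and 41.5% TTGGC, so these matches are common. RefSeq promoters were found for 8 of the 10 genes.

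Tac1 (chr6:7554879-7565834, plus strand) encodes substance P and neurokinin A, tachykinins of sensory nerves. It read 0.0479, 0.0437 and 0.221 CPM in the TKO tumors, 1.83, 2.16 and 0.0561 in the CARM1 knockout tumors, and 5.46, 6.77 and 1.97 in the NFIB mutant tumors. Only the NFIB mutant libraries were all above TKO. Tac1 rose 45.5-fold in mean CPM in NFIB mutant (4.73 ± 2.48 against 0.104 ± 0.101 CPM, SD, n = 3 each, log2 fold change 5.41, SE 1.33, adjusted p = 0.0146) with no library deciding the call. In CARM1 knockout it was called higher (log2 fold change 3.60, SE 1.25, adjusted p = 0.0562) although replicate 3 lay within TKO, and the call was lost without TKO replicate 1 (0.150), TKO replicate 2 (0.150), CARM1 knockout replicate 1 (0.128) or CARM1 knockout replicate 2 (0.136), all adjusted p, in a range of 0.00929 to 0.190 over 15 alternatives. The 6 peripheral neuron markers summed to 7.55 to 44.1 CPM in the TKO tumors, 0 to 17.8 in the CARM1 knockout tumors, and 0.254 to 0.910 in the NFIB mutant tumors. Only 2 of these markers, Th and Prph, had enough counts to be tested. The part of nerve cells in the Tac1 values was not tested.

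Npy (chr6:49822710-49829507, plus strand) encodes neuropeptide Y, a peptide of sympathetic nerves. It read 0.911, 0.306 and 0 CPM in the TKO tumors, 17.9, 4.6 and 20.5 in the CARM1 knockout tumors, and 0.668, 4.0 and 0 in the NFIB mutant tumors. All CARM1 knockout libraries were above all libraries of the other groups. Npy rose 35.3-fold in mean CPM in CARM1 knockout (14.3 ± 8.53 against 0.406 ± 0.464 CPM, SD, n = 3 each, log2 fold change 5.13, SE 1.89, adjusted p = 0.0682). That call was lost without TKO replicate 2 (adjusted p = 0.169), TKO replicate 3 (0.111), CARM1 knockout replicate 1 (0.132) or CARM1 knockout replicate 3 (0.105), in a range of 0.00522 to 0.169 over 16 alternatives. In NFIB mutant it was not called (log2 fold change 1.93, SE 1.68, adjusted p = 0.374). The difference between the mutants themselves was not called either (log2 fold change 3.20, SE 1.72, adjusted p = 0.619).

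Sst, Vip and Gal were each high in 1 or 2 tumors and were not tested. Sst (chr16:23889573-23890958, minus strand; somatostatin, which restrains the release of other hormones) had 158 counts in TKO replicate 2, or 6.90 CPM, 1 count in CARM1 knockout replicate 2 and 0 in the other 7 libraries. Vip (chr10:5639218-5647617, plus strand; vasoactive intestinal peptide, a dilator of vessels and airways) had 131, 7 and 1 counts in TKO and 0 in all 6 mutant libraries. Gal (chr19:3409915-3414544, minus strand; galanin) had 208 counts in TKO replicate 3, or 9.18 CPM, and 135 counts in CARM1 knockout replicate 3, or 7.57 CPM, with at most 1 count elsewhere. A count of 0 in a mutant library allows a level of up to 0.168 to 0.203 CPM.

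In mean RPKM, the level per length that allows genes to be ranked, TKO stood at 7.60 for Calca, 4.93 for Cck, 4.66 for Grp, 3.92 for Gal, 3.19 for Sst, 0.717 for Npy and 0.650 for Vip, with a different gene first in each of the 3 tumors. In NFIB mutant Cck was at 198 RPKM with Npy next at 2.75 and Tac1 at 1.39, and Cck was the highest in 3 of 3 libraries. In CARM1 knockout the means were 165 for Calca, 81.2 for Cck and 25.3 for Npy, of which that of Calca came from replicate 3.

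Chromatin near the neuropeptide genes changed about as often as elsewhere. Of the 37 peaks, 12 were higher and 13 lower in CARM1 knockout (67.6% called, beside 71.1% of all 111116 peaks tested, 38.7% higher and 32.4% lower). In NFIB mutant 13 were higher and 15 lower (75.7% called, beside 73.3%, 39.3% higher and 34.0% lower). The libraries did not overlap at 27 and 26 of the 37 peaks, beside 69.8% and 70.5% of all peaks. Both mutants shared 12 higher and 13 lower peaks, as seen against the same TKO libraries, 3 were called in 1 mutant and 9 in neither. Between the mutants 0 of 37 peaks and 0 of 111116 were called by edgeR (0.0%, smallest adjusted p = 0.124), 6813 peaks had an unadjusted p under 0.05 and DESeq2 called 1060. With counts scaled by library totals, 15 were higher and 10 lower in CARM1 knockout and 14 higher and 13 lower in NFIB mutant. Of the 37 peaks, 4 were nearer to the start of another gene.

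**Figure D3:**
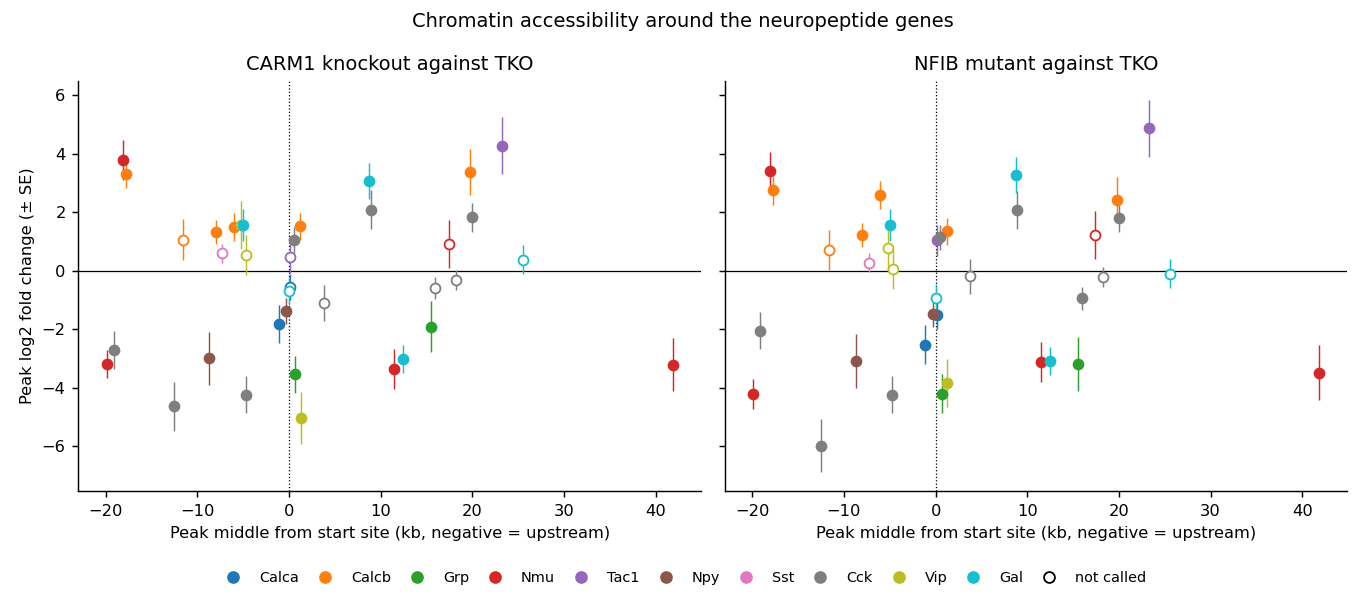
Log2 fold change (± SE) of the 37 ATAC-seq peaks against the distance of the peak's middle from the gene's most 5′ start site, coloured by gene, filled where called. Calls of both directions lie on both sides of the start, from -5.98 for a Cck peak upstream to 4.87 for a Tac1 peak downstream in NFIB mutant.

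At Grp, whose mRNA fell, both peaks were called lower in both mutants, that 15486 bp downstream of the start only weakly in CARM1 knockout (adjusted p = 0.0754, but 0.119 to 0.183 without TKO replicate 1 or 2 or CARM1 knockout replicate 1 or 2, and 0.204 with library totals). The peak over its start (chr18:65872677-65874267) read 26.7, 20.2 and 9.80 CPM in the TKO tumors, 0.568, 0.998 and 3.31 in the CARM1 knockout tumors, and 1.08, 1.08 and 0.922 in the NFIB mutant tumors. Every mutant library was below every TKO library (log2 fold change -3.54, SE 0.64, adjusted p = 0.00102 in CARM1 knockout, and -4.20, SE 0.67, adjusted p = 0.000434 in NFIB mutant). The peak over the Calca start (chr7:114635639-114636852) read 4.27, 6.17 and 5.74 CPM in the TKO tumors, 2.40, 2.98 and 5.68 in the CARM1 knockout tumors, and 1.49, 1.61 and 2.53 in the NFIB mutant tumors. It fell in NFIB mutant (log2 fold change -1.52, SE 0.45, adjusted p = 0.0120), a call lost when counts were scaled by library totals (-0.93, adjusted p = 0.102, the largest over the alternatives tried). In CARM1 knockout it was not called (-0.55, SE 0.44, adjusted p = 0.287) unless replicate 3, the library with the highest value, was left out (adjusted p = 0.0898, range over 18 alternatives 0.0898 to 0.947).

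The 9 peaks around Cck went both ways. The peak over the start (chr9:121494104-121496263) read 3.73, 5.09 and 2.83 CPM in the TKO tumors, 8.14, 8.72 and 7.47 in the CARM1 knockout tumors, and 11.4, 10.6 and 3.85 in the NFIB mutant tumors. It was called higher in CARM1 knockout (log2 fold change 1.06, SE 0.44, adjusted p = 0.0512) and in NFIB mutant (1.14, SE 0.44, adjusted p = 0.0369), where replicate 3 lay within TKO and was also the lowest of the 3 in Cck mRNA, if the replicate numbers of the assays mark the same tumors. Those calls were lost in CARM1 knockout without TKO replicate 1 (adjusted p = 0.108), TKO replicate 3 (0.113) or CARM1 knockout replicate 2 (0.108), and in NFIB mutant without its replicate 1 (0.132) or 2 (0.113). Peaks 8913 and 19955 bp downstream of the start, beyond the gene, also rose, by 2.10 and 1.83 in CARM1 knockout and 2.09 and 1.82 in NFIB mutant on the log2 scale. A peak 15936 bp downstream was called lower in NFIB mutant (-0.94, adjusted p = 0.0524) but not in CARM1 knockout (-0.59, adjusted p = 0.202). Those 3808 and 18225 bp downstream were not called in either mutant.

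The most accessible Cck peak in TKO was lost instead. This peak, 12547 bp upstream at chr9:121507674-121508808, read 19.3, 29.7 and 12 CPM in the TKO tumors, 0.155, 0.422 and 1.89 in the CARM1 knockout tumors, and 0.508, 0.337 and 0.137 in the NFIB mutant tumors. It fell 24.8-fold in CARM1 knockout (log2 fold change -4.63, SE 0.84, adjusted p = 0.00101) and 62.1-fold in NFIB mutant (-5.98, SE 0.91, adjusted p = 0.000345), and both calls held under all 17 alternatives fitted. Peaks 4750 and 19147 bp upstream also fell in both mutants, by 4.23 and 2.70 in CARM1 knockout and by 4.23 and 2.04 in NFIB mutant on the log2 scale. Cck was thus higher in mRNA in the genotypes in which all 3 of its upstream peaks were closed. The next nearest gene start to the 12547 bp peak is that of Trak1, 53945 bp away.

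**Figure D4:**
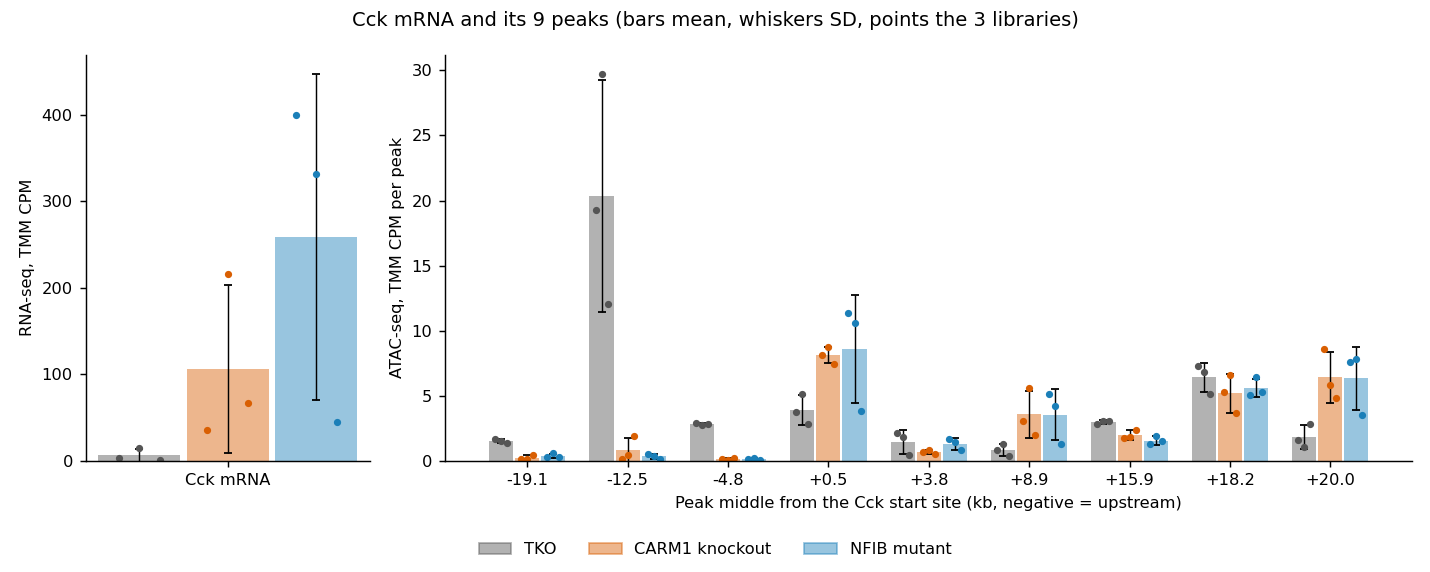
Cck mRNA (left) and its 9 ATAC-seq peaks by distance from the start (right), in TMM CPM, as means with SD and the 3 libraries of each genotype as points. The peak 12547 bp upstream averages 20.3 CPM in TKO and under 1 CPM in both mutants, while the mRNA averages 6.44, 106 and 259 CPM.

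Tac1 showed the opposite kind of peak, one that opened. The peak 23270 bp downstream of its start (chr6:7577778-7578519) read 0.127, 0 and 0.296 CPM in the TKO tumors, 3.0, 2.27 and 2.68 in the CARM1 knockout tumors, and 1.26, 2.65 and 8.07 in the NFIB mutant tumors. It rose by 4.28 (SE 0.97, adjusted p = 0.00321) and 4.87 (SE 0.98, adjusted p = 0.00162) on the log2 scale, and CARM1 knockout replicate 3 had it although Tac1 mRNA was under the floor in the RNA-seq library of that number. The peak over the Tac1 start was not called in CARM1 knockout (log2 fold change 0.47, adjusted p = 0.446). In NFIB mutant it reached 1.05 (adjusted p = 0.0973), a call that 7 of 9 left-out libraries ended, with adjusted p up to 0.259.

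The middle 300 bases of the Cck and Tac1 peaks that changed most are given on the plus strand, as RefSeq GRCm38.p6 reads them, with the same motifs in capitals. Both lie outside annotated genes.
Cck upstream peak, chr9:121508091-121508390: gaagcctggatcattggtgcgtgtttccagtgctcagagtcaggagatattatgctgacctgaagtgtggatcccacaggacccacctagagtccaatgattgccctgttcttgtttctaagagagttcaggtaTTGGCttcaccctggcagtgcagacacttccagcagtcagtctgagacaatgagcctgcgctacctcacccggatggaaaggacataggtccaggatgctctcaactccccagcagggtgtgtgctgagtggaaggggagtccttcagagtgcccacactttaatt
Tac1 downstream peak, chr6:7577998-7578297: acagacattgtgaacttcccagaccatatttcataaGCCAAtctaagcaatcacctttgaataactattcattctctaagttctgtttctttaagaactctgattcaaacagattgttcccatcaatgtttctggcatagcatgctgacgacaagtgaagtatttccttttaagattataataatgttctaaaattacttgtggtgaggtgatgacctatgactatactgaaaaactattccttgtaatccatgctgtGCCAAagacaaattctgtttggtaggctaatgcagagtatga
The Cck stretch held 1 TTGGC match and the Tac1 stretch 2, both as GCCAA, and neither held an E-box of those searched. Over the 37 member peaks, 20 (54.1%) held TTGGC in their middle 300 bases, beside 50.6% of all peaks, 8 (21.6%) held CAGCTG, beside 22.7%, 6 (16.2%) held CAGGTG, beside 18.3%, and 7 (18.9%) held CAGATG, beside 25.4%. None held TGACGTCA or the full NFI site, which 0.565% and 0.10% of all peaks held.

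At Npy, mRNA and promoter moved in different directions in CARM1 knockout. The peak at its start (chr6:49822018-49822812) read 3.44, 2.75 and 3.50 CPM in the TKO tumors, 1.19, 0.845 and 1.72 in the CARM1 knockout tumors, and 1.08, 1.28 and 1.14 in the NFIB mutant tumors. It fell in both (log2 fold change -1.37, adjusted p = 0.0160, and -1.47, adjusted p = 0.0110), of which the first was lost when counts were scaled by library totals (-0.80, adjusted p = 0.143, the largest over the alternatives tried). A second Npy peak 8718 bp upstream fell too (-2.98 and -3.07).

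The remaining loci had little mRNA but many changed peaks. At Calcb 5 of 6 peaks were higher in both mutants, among them the most accessible one, 17776 bp upstream (0.833 CPM in the TKO tumors, 8.35 in the CARM1 knockout tumors, and 5.64 in the NFIB mutant tumors, log2 fold changes 3.32 and 2.76). At Nmu 3 of 5 peaks fell and 1 rose in both. At Vip the peak 1292 bp inside the gene fell from 1.66 to 0.0511 and 0.116 CPM (-5.03 and -3.83). At Gal the peak over the start was not called (-0.68, adjusted p = 0.232, and -0.93, adjusted p = 0.112), while 2 of its 5 peaks rose and 1 fell in both, and its most accessible peak lies at the start of Tesmin, 92 bp away. The single Sst peak, 7301 bp upstream, read 10.7 to 22.3 CPM in the TKO tumors, 20.6 to 25.2 in the CARM1 knockout tumors, and 11.6 to 23.3 in the NFIB mutant tumors and was not called.

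The wider peptide system was read from 4 lists, and genes that were called are named below even where the naming rule did not pick them, so those names were chosen after their values were seen. Of 48 other peptide precursors that had a row of counts, 14 were tested. In CARM1 knockout 4 were called higher (Adm, Adm2, Edn1, Penk) and 1 lower (Npb), in NFIB mutant 3 higher (Adm, Adm2, Penk) and 1 lower (Trh), and without CARM1 knockout replicate 3 the counts became 4 higher with 5 lower and 3 higher with 5 lower. Leaving out NFIB mutant replicate 3 gave 8 calls in CARM1 knockout, and leaving out CARM1 knockout replicate 1 or 2 gave 7 or 8 in NFIB mutant. In these fits 20 of the list were tested, and 17 without CARM1 knockout replicate 3. The shares called, 5 and 4 of 14, stood beside 38.8% and 45.8% of all genes tested. The median log2 fold changes were -0.67 and -0.42. Adm, the vasodilator adrenomedullin and a relative of CGRP, read 1.05, 0.0437 and 0.132 CPM in the TKO tumors, 70.6, 35.5 and 43.6 in the CARM1 knockout tumors, and 73.7, 149 and 22.9 in the NFIB mutant tumors. It rose by 6.92 (SE 1.19, adjusted p = 0.00488) and 7.64 (SE 1.23, adjusted p = 0.00294) on the log2 scale, in all 6 mutant libraries and under all 16 alternatives fitted. Edn1 (endothelin, a vasoconstrictor) rose in CARM1 knockout by 6.96 (adjusted p = 0.0246), with 33.0 CPM in replicate 2 and 0.677 and 2.80 CPM in the others. With 3, 2 and 1 counts in TKO, it passed the low count filter only through mutant libraries.

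Penk (proenkephalin) was called higher in both, by 4.92 (adjusted p = 0.0822) and 7.22 (adjusted p = 0.0284), but its 52.9 CPM in NFIB mutant replicate 1 stood beside 2.71 and 0.190 CPM, and 5 left-out libraries (TKO replicates 1, 2 and 3 and CARM1 knockout replicates 1 and 2) ended the first call, with adjusted p from 0.131 to 0.177. Vgf, a granule protein of neuroendocrine cells, read 30.7, 16.7 and 19.1 CPM in the TKO tumors, 1.42, 0.932 and 122 in the CARM1 knockout tumors, and 1.15, 3.33 and 0.825 in the NFIB mutant tumors, and was not called (0.90, adjusted p = 0.667, and -3.64, adjusted p = 0.117). Without CARM1 knockout replicate 3 it was called lower in both (-4.18, adjusted p = 0.00942, and -3.61, adjusted p = 0.00556), and in NFIB mutant also without CARM1 knockout replicate 1 (0.0818) or 2 (0.0709). Other precursors were high in a single tumor. Pnoc (nociceptin) was at 243 CPM in TKO replicate 2 and at most 1.5 CPM elsewhere, and Cartpt reached 65.3 CPM in CARM1 knockout replicate 3 but no more than 1.97 CPM elsewhere. The Trh call (-6.62, adjusted p = 0.0847) was ended by leaving out any 1 of the 6 TKO and NFIB mutant libraries (adjusted p = 0.116 to 0.173).

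All 12 processing enzymes were tested. In NFIB mutant 5 were called lower, namely Pcsk1, Pcsk2, Scg5, Pcsk1n and Pcsk4, and 4 higher, namely Furin, Cpd, Qpct and Cpz, beside 23.5% lower and 22.3% higher among all genes tested. In CARM1 knockout Pcsk2, Pcsk4 and Qpct were called lower and Furin and Cpz higher (5 of 12, beside 38.8% of all genes tested), and without its replicate 3 the counts were 6 lower and 2 higher, while without TKO replicate 1 only 3 genes were called. The NFIB mutant call of Cpd (1.06, adjusted p = 0.0682) was lost without TKO replicate 1 or 2 or NFIB mutant replicate 2 or 3 (adjusted p = 0.126 to 0.181). That of Qpct (1.12, adjusted p = 0.0774) was lost without TKO replicate 1 or 2, CARM1 knockout replicate 1 or NFIB mutant replicate 2 or 3 (0.102 to 0.229), and the CARM1 knockout call of Pcsk4 (-1.92, adjusted p = 0.0294) without TKO replicate 1 (0.101). Pcsk2, a prohormone convertase of dense core granules, read 44.4, 16.4 and 130 CPM in the TKO tumors, 0, 0 and 6.39 in the CARM1 knockout tumors, and 0.303, 0 and 0 in the NFIB mutant tumors. It fell in NFIB mutant by 9.18 (SE 2.56, adjusted p = 0.0232) on the log2 scale, called under all 16 alternatives fitted, whereas its call in CARM1 knockout (-4.89, adjusted p = 0.0927) was ended by each of 8 left-out libraries, with adjusted p from 0.107 to 0.226, and kept only without CARM1 knockout replicate 3. Pcsk1 fell in NFIB mutant (-7.74, adjusted p = 0.0695) but was at 145 CPM in CARM1 knockout replicate 3, and 5 left-out libraries (TKO replicates 1 and 3 and NFIB mutant replicates 1, 2 and 3) ended that call, with adjusted p from 0.114 to 0.169.

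Furin, the convertase of the general secretory pathway, went the other way. It read 41.6, 25 and 33.0 CPM in the TKO tumors, 207, 276 and 158 in the CARM1 knockout tumors, and 199, 227 and 221 in the NFIB mutant tumors, and rose by 2.68 (SE 0.27, adjusted p = 0.000717) and 2.70 (SE 0.27, adjusted p = 0.000526) on the log2 scale, under all 17 alternatives fitted. Cpe (carboxypeptidase E) and Pam (the amidating enzyme), which many cell types besides neuroendocrine cells express, were not called in either mutant. Cpe read 275 to 443 CPM in the TKO tumors, 254 to 294 in the CARM1 knockout tumors, and 160, 138 and 429 in the NFIB mutant tumors. Without NFIB mutant replicate 3 Cpe was called lower in NFIB mutant. The mutants' granule convertases were thus near 0 in 5 of 6 tumors, where Cck mRNA was 35.2 to 400 CPM. The exception was CARM1 knockout replicate 3, whose Cck level of 66.4 CPM lay within that range.

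**Figure D5:**
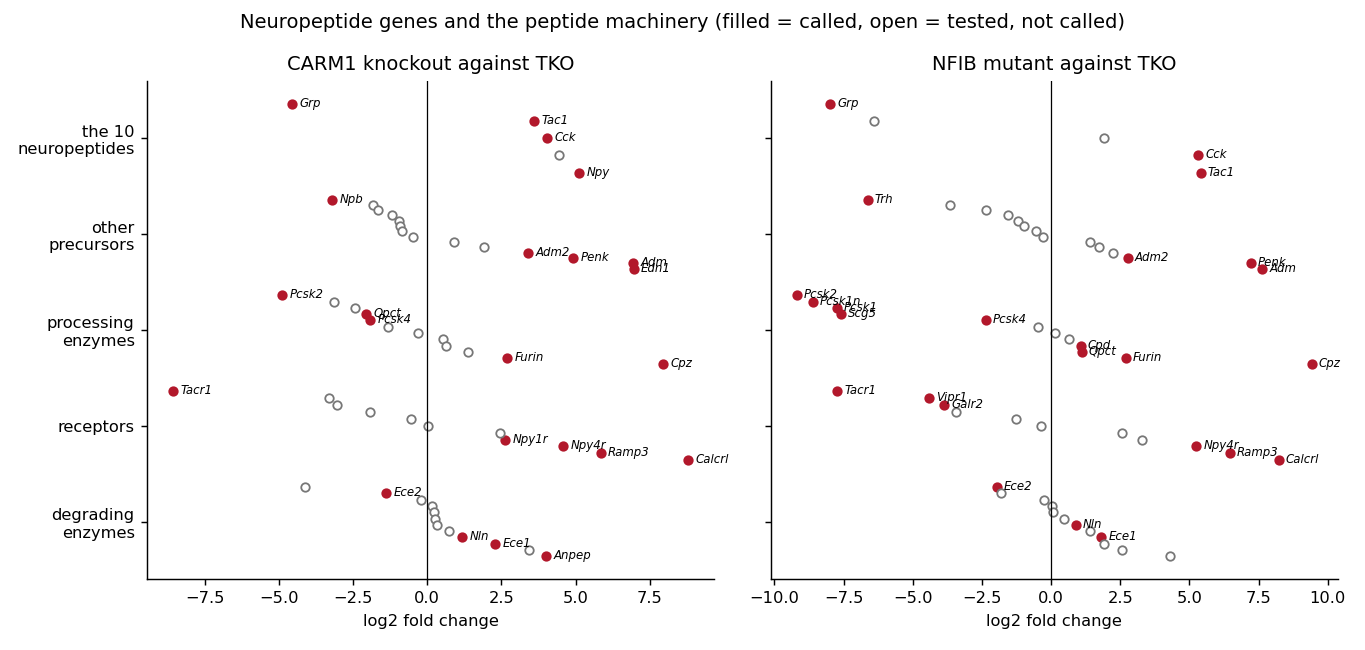
Log2 fold change of every tested gene of the 10 neuropeptides and the 4 related lists, filled and named where called, with a different scale in the panels. Furin, Cpz, Adm, Calcrl and Ramp3 lie to the right in both panels, and Pcsk1, Pcsk1n and Scg5 are filled in the NFIB mutant panel and open in the other, where leaving out CARM1 knockout replicate 3 made them called lower too. Between the mutants edgeR called none of these 3, as it called 0 of 15514 genes. The DESeq2 Wald test, which called 540 genes there, did call Pcsk1 and Pcsk1n (adjusted p = 0.00408 and 0.0433).

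Of 25 receptor genes 11 were tested, with 4 calls upward and 1 downward in CARM1 knockout and 3 each way in NFIB mutant, near the 38.8% and 45.8% called among all genes. Without CARM1 knockout replicate 3 the counts were 3 and 3 in each, and without TKO replicate 1 or 2 there were 3 calls in CARM1 knockout. Calcrl and Ramp3, which together form a receptor for adrenomedullin, rose in both mutants, as did the receptor Npy4r (log2 fold changes 4.58, adjusted p = 0.0723, and 5.25, adjusted p = 0.0444). The Npy4r calls were lost in CARM1 knockout without TKO replicate 1, 2 or 3 or CARM1 knockout replicate 2 (adjusted p = 0.140 to 0.313), and in NFIB mutant without TKO replicate 2 or 3 (0.117 and 0.112). Calcrl read 0.0479, 0 and 0 CPM in the TKO tumors, 12.6, 2.91 and 13.7 in the CARM1 knockout tumors, and 4.73, 5.67 and 9.52 in the NFIB mutant tumors (log2 fold changes 8.78, adjusted p = 0.00190, and 8.23, adjusted p = 0.00172). Calcrl, like Cdh5 below, had 1 count in TKO and passed the low count filter only through mutant libraries. Its fitted values depend on the prior count. The Calcrl rates were 642 and 438 times the TKO rate (exact 95% intervals 115 to 25406 and 78.1 to 17371, counting error only). Ramp3 read 0.240 to 2.60 CPM in the TKO tumors, 10.7 to 146 in the CARM1 knockout tumors, and 24.1 to 141 in the NFIB mutant tumors (5.84, adjusted p = 0.0164, and 6.45, adjusted p = 0.0103). The calls of Calcrl and Ramp3 held with each library left out. Endothelial cells also express these genes, and 5 endothelial markers summed to 5.85 to 21.2 CPM in the TKO tumors, 4.02 to 73.8 in the CARM1 knockout tumors, and 1.82 to 12.2 in the NFIB mutant tumors. Within that list Cdh5 was called higher in both mutants (4.21, adjusted p = 0.0443, and 5.79, adjusted p = 0.0126), with at most 0.0479 CPM in TKO, 0.168 to 0.699 in the CARM1 knockout tumors, and 0.243 to 2.77 in the NFIB mutant tumors, whereas Kdr was called lower in NFIB mutant (-4.71, adjusted p = 0.0620) and the other 3 were not called. The Cdh5 call in CARM1 knockout was lost without TKO replicate 2 or 3 or CARM1 knockout replicate 2 (0.105 to 0.123), and that of Kdr without TKO replicate 3 or NFIB mutant replicate 1 or 3 (0.124 to 0.255). The part of endothelial cells in the Calcrl and Ramp3 values was not tested. Tacr1, the receptor of substance P, fell in both (-8.56 and -7.72, adjusted p = 0.0189 and 0.0186), with 28.2 CPM in TKO replicate 2 and 0.795 to 1.29 CPM in the other TKO libraries. Tac1 was thus higher in NFIB mutant where its receptor was lower.

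Npy1r, a receptor of neuropeptide Y, read 9.06, 9.0 and 0.883 CPM in the TKO tumors, 15.5, 20.8 and 79.6 in the CARM1 knockout tumors, and 1.52, 3.02 and 3.30 in the NFIB mutant tumors. It was called higher in CARM1 knockout (2.61, adjusted p = 0.0647), like Npy itself, but not without TKO replicate 1, TKO replicate 2 or CARM1 knockout replicate 3 (adjusted p = 0.104 to 0.193). Vipr1 and Galr2 were called lower in NFIB mutant (-4.42, adjusted p = 0.0818, and -3.86, adjusted p = 0.0539). Without any 1 of the 6 TKO and NFIB mutant libraries Vipr1 was not called (adjusted p = 0.118 to 0.173), nor was Galr2 without TKO replicate 3 or NFIB mutant replicate 2 or 3 (0.111 to 0.154). Sstr2, a somatostatin receptor, read 40.1, 28.1 and 9.76 CPM in the TKO tumors, 0.0677, 0.233 and 7.46 in the CARM1 knockout tumors, and 7.10, 0.123 and 0 in the NFIB mutant tumors, so that every mutant library lay below TKO. It was not called (-3.32, adjusted p = 0.243, and -3.43, adjusted p = 0.219), but was lower and called in CARM1 knockout without its replicate 3 (adjusted p = 0.0663) and in NFIB mutant without its replicate 1 (0.0438). The Cck receptor genes Cckar and Cckbr were not tested, with 2.45 CPM of Cckar in TKO replicate 1 and at most 0.431 CPM of either elsewhere. The medians of the 11 tested receptors were 0.01 and -0.36.

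All 12 peptide-degrading enzymes were tested. Ece1, Nln and Anpep were called higher and Ece2 lower in CARM1 knockout, and Ece1 and Nln higher and Ece2 lower in NFIB mutant. These 4 and 3 of 12 lay below the 38.8% and 45.8% called among all genes tested, with median log2 fold changes of 0.30 and 0.67 for the list. Ece1, endothelin-converting enzyme, read 40.3, 39.9 and 14.6 CPM in the TKO tumors, 83.7 to 220 in the CARM1 knockout tumors, and 95.5 to 127 in the NFIB mutant tumors (2.28, adjusted p = 0.00936, and 1.82, adjusted p = 0.0165). Its relative Ece2 read 66.7 to 105 CPM in the TKO tumors, 26.8 to 38.6 in the CARM1 knockout tumors, and 16.9 to 26 in the NFIB mutant tumors (-1.38, adjusted p = 0.00625, and -1.96, adjusted p = 0.00147). Prep, Ide and Dpp8, proteases found in most cells, were not called.

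Genes with the pattern most like that of the leading members over the 9 libraries were sought by Pearson's r of log2 CPM, given as a description across libraries of 3 genotypes. For Cck they were Mfsd10 (0.975), Tlcd2 (0.969) and Trim8 (0.968), for Calca Esyt3 (0.974), 1700019D03Rik (0.970) and Klhl40 (0.969), and for Npy Galnt6 (0.969), Clec5a (0.962) and Piwil2 (0.956). Tlcd2 read 0.0441 to 0.568 CPM in the TKO tumors, 3.81 to 8.62 in the CARM1 knockout tumors, and 6.79 to 16.3 in the NFIB mutant tumors. Esyt3 read 1.09 to 3.74 CPM in the TKO tumors, 22.5 CPM in CARM1 knockout replicate 3 and 0 to 0.175 CPM in the 5 remaining mutant tumors. Clec5a read 0 to 0.767 CPM in TKO, 3.09 to 11.9 in the CARM1 knockout tumors, and 0 to 1.91 in the NFIB mutant tumors.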

How the data were processed

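RNA-seq and ATAC-seq were each measured in 9 libraries, 3 per genotype. The authors trimmed the RNA-seq reads, aligned them to mm10 (GRCm38) with hisat2 and deposited counts per gene from htseq-count. They aligned ATAC-seq reads with Bowtie2, called peaks on the genome outside regions of altered copy number, and deposited counts per peak made with featureCounts 1.6.3 per the file header, while their methods name bedtools. MACS2 stands in the methods as the peak caller and Genrich in the submitters' processing notes. Neither unit was normalized, and tables of the authors' own comparisons were not used here. The columns are lettered C, KO and N. These letters are not in the sample labels and were read as TKO, CARM1 knockout and NFIB mutant from the study's own legends. The 5 summary entries of the gene table were left out (reads on no gene were 10.0 to 12.2% in TKO and 3.65 to 5.17% in the mutants), and no libraries were identical.

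Counts were fitted with edgeR 4.0.16 (R 4.3.3, quasi-likelihood, robust, TMM factors, filterByExpr) in 1 model of all 9 libraries per assay, with Benjamini-Hochberg adjustment over all features tested. The standard error is the log2 fold change over the root of F. DESeq2 1.42.0, other scalings, filters, fits of only 2 genotypes and left-out libraries were the alternatives. The exact permutation test of 3 against 3 cannot go below p = 0.10 and was not used. All p-values measure the spread among tumors of separate animals. Counting intervals and floors cover counting error only. Peaks were taken within 20000 bp of the GENCODE gene, and sequences from RefSeq GRCm38.p6. The members and lists were chosen with earlier results of these data known. The genes named were the members, the 4 genes of each list with the highest mean CPM among those tested, the 3 genes most like each of the 3 members with the highest mean CPM, and Carm1 and Nfib. Deviations of same-numbered libraries of the genotypes correlated weakly or negatively, which with 3 libraries a genotype cannot settle whether the numbers pair tumors. Kiss1 and Galr3 were not analysed here.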

Additional observations from a re-analysis of the deposited data

Results flagged for a closer look

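Qpct, which makes the N-terminal pyroglutamate of several peptides, moved in opposite directions in the mutants. It read 15.9, 12.4 and 39.1 CPM in TKO, 5.89, 4.37 and 5.94 CPM in every CARM1 knockout tumor, all below TKO, and 39.6, 68.1 and 39.2 CPM in the NFIB mutant tumors, all above TKO. The difference between the mutants was -3.18 on the log2 scale and was not called by edgeR (adjusted p = 0.205), which called 0 of 15514 genes there. The DESeq2 Wald test, which called 540 genes, did call Qpct (adjusted p = 6.8e-07). TKO replicate 3, at 39.1 CPM, was nearly level with the NFIB mutant tumors. The cause was not tested.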

How the results depend on the processing

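Tumor libraries, 3 a genotype, and low counts set the limits: 5 of the 10 genes could not be tested, and calls of genes with few counts moved with single tumors. Requiring at least 10 counts in every library took away genes that were silent in a genotype. It left 1 neuropeptide gene to test, called in each mutant (main 4 and 3 of 5). Of 25 peaks left, 15 and 16 were called (main 25 and 28 of 37). Of 1 other precursor left, 0 was called in each (main 5 and 4 of 14). Of 6 processing enzymes 3 and 4 were called (main 5 and 9 of 12), and of 1 receptor 1 and 0 (main 5 and 6 of 11). Over all features this filter gave calls for 4104 and 4520 of 10947 genes. For peaks it gave 38831 and 40676 of 65496. An adjusted p under 0.05 left 1 of 5 neuropeptide genes and 3 of 11 receptors called in CARM1 knockout, beside 4829 of 15514 genes. A fit of only the 2 genotypes left 3 of 11 processing enzymes called in CARM1 knockout, beside 5671 of 14958 genes. In NFIB mutant, library totals gave 8 of 14 other precursors, beside 7503 of 15514 genes. DESeq2 gave 7 of the 43 it fitted, beside 8227 of 27468 genes. Between the mutants DESeq2 called 1 of 43 other precursors, 1 of 25 receptors and 1 of 12 degrading enzymes. It also called 3 of 12 processing enzymes (Pcsk1, Pcsk1n and Qpct), and 540 of 27468 genes in all. In edgeR 0 were called. Beyond those construction effects the cause was not tested.

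With the replicate number as a block (replicate block), 2 of 5 neuropeptide genes and 3 of 11 receptors were called in CARM1 knockout. In NFIB mutant 2 of 14 other precursors were called. Over all 15514 genes tested, the block gave 5485 and 6508 calls. The Calca log2 fold change in CARM1 knockout turned to -1.18. The deviations of same-numbered libraries correlated at -0.297 to 0.118 in RNA-seq and -0.142 to 0.118 in ATAC-seq. Those of differently numbered libraries correlated at -0.137 to 0.187 in RNA-seq. With 3 libraries a genotype, these values cannot settle whether the numbers pair the tumors.

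Leaving out 1 library at a time gave 1 to 4 neuropeptide genes, 4 to 9 other precursors, 3 to 8 processing enzymes and 3 to 6 receptors called in CARM1 knockout, and 4 to 8 other precursors in NFIB mutant. The 9 other precursors and 8 processing enzymes in CARM1 knockout came without CARM1 knockout replicate 3. They were of 17 and 12 tested, where 39.6% of all genes tested were called. Log2 fold changes that changed sign ranged from -6.06 to 5.07 for Calca in CARM1 knockout and -0.26 to 3.31 for Npy in NFIB mutant. Among peaks not called, they ranged from -0.065 to 2.64 at Nmu and -0.028 to 1.49 at the Gal peak shared with Tesmin in CARM1 knockout, and from -0.50 to 1.53 at Vip and -0.50 to 1.01 at that Gal peak in NFIB mutant.

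Scaling by library totals shifted the median of all genes by -0.27 and -0.33 and of all peaks by 0.58 and 0.57 on the log2 scale in CARM1 knockout and NFIB mutant, and the share of calls that were higher from 52.9 to 39.4% and 48.7 to 35.8% for genes and from 54.4 to 65.9% and 53.6 to 64.3% for peaks. It turned the Calca promoter peak in CARM1 knockout to 0.038. Scaling by promoter peaks of stable genes shifted all peaks by 0.41 and 0.48. The Gal peak shared with Tesmin turned in NFIB mutant to 0.36 under library totals, 0.058 under the stricter filter, 0.20 under the replicate block and 0.36 under stable promoters.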

Other observations

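Single tumors carried peptide genes of their own, as values chosen after they were seen. TKO replicate 2 held 6.90 CPM of Sst, 243 CPM of Pnoc and 28.2 CPM of Tacr1, while no other library exceeded 0.0583, 1.5 and 1.29 CPM of these genes. CARM1 knockout replicate 3 held 832 CPM of Calca, 65.3 CPM of Cartpt, 145 CPM of Pcsk1, 122 CPM of Vgf and 11.5 CPM of the somatostatin receptor gene Sstr5, while no other library exceeded 21.9, 1.97, 30.7, 30.7 and 0.240 CPM of these. With 1 tumor each, no test applies.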
